A study of Mus musculus with 1073 samples.

Results

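The endothelium of the E10.5 mouse yolk sac was examined here as 61 single cells, of 926 cells kept in the filtered tables and 1073 cells captured in the series. They were the cells that the deposited tables label E10.5 Endo, so the choice rested on the sort and not on any transcript level. All cells came from C57BL/6 yolk sacs without a transgene or treatment in the labels, dissociated with collagenase and dispase. Live cells negative for TER119, CD45 and CD41 and positive for CDH5 (VE-cadherin) were sorted as endothelium. Of 80 captured endothelial cells, 61 passed the filter of the study. They were set beside the 3 other sorted E10.5 populations: 87 haematopoietic progenitor/colony forming cells (HPC, which the labels call erythro-myeloid progenitors; CDH5- CD45+ CD41low), 73 megakaryocyte lineage cells (Mk; CDH5- CD45- CD41high) and 25 macrophages (Mac; CDH5- CD41- CD45+), all TER119-.

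Endothelium lines the vessels of the yolk sac, the earliest vascular bed of the embryo, and is built from extraembryonic mesoderm. Vascular endothelial growth factor (VEGF) acting on its receptors drives the growth of this bed, angiopoietins and the Tie receptors steady it, and cadherin, claudin and connexin junctions join its cells. A minority of yolk sac endothelium is known to turn on Runx1 and to give rise to blood, while flow and Notch signalling divide the vessels into arterial and venous domains.

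Each cell is 1 library of a Fluidigm C1 plate, and read counts per endothelial cell ran from 589064 to 4551690. Counts in the other 3 populations ran from 483830 to 5943204. The median number of genes with a count was 6412 per endothelial cell, 9165 in HPC, 7763 in Mk and 7826 in Mac. Each population was read in a lane of its own on the same flow cell, and 57, 44 and 12 of the 61 index pairs of the endothelial cells were used again in the HPC, Mk and Mac lanes. The labels name no embryo, pool or repeat capture, so each population is 1 sample: the cells show the spread within it, no test between populations was possible, and population, capture and lane cannot be told apart. Levels are means over cells of counts scaled to CPM (read counts relative to library size) after the size factors of the study, which are not adjusted for transcript length and are compared here only within a gene.

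The label was checked against 6 endothelial markers. At 10 counts or more, 41 cells had all 6, 16 had 5 and 3 had 4. The remaining cell, numbered 16, had only Cdh5, with 231 counts; Kdr stood at 7 counts, Tek at 2, Aplnr and Emcn at 1 each and Plvap at 0. That cell held 338 counts of Epcam, 521 of Krt8 and 805 of Krt18, which code for epithelial surface and keratin proteins, and 1333 of Pdgfra, while at most 1 of the other 60 cells reached 10 counts of any of these. Among its leading genes against the other cells, chosen after their values were seen, were Pdpn, Pga5 and Aqp8, and no cell type is given to it here. Another 7 cells had CPM values that summed to over 1500000, since the size factors of the study do not fix this sum; their mitochondrial share of counts was 13.0% to 49.1%, against a median of 4.43% over all 61 cells. The counts of called genes are given with and without these cells, whereas most lowest and highest values below include them. Cell 16 held 8 counts of Calcrl and 4 of Cd93, against at least 212 and 69 in each of the other 60 cells. Cell 73, which is 1 of the 7, held the highest values of Kdr and Plvap.

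To show the letters around a transcript start of genes that mark this population, promoter windows from RefSeq (250 bases before to 50 after the transcript start, GRCm38.p6) are printed for 2 markers, for a leading gene and for a gene pair that shares its start region. The Kdr window lies inside the full span of the gene, chr5:75932827-75979072, so it is not upstream of that span. Capitals mark a match to CCGGAA or CAGGAAG on either strand, both of which contain GGAA, the core letters of ETS factor motifs; Kdr and Emcn carry the match on the reverse strand, so the printed letters are the reverse complement.
Kdr, chr5:75978406-75978705, minus strand: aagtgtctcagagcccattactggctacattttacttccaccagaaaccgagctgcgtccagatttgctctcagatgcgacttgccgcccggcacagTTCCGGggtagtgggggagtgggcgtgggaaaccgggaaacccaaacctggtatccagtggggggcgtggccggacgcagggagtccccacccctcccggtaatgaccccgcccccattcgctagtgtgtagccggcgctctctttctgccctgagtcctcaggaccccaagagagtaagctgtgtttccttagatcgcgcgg
Emcn, chr3:137340828-137341127, plus strand: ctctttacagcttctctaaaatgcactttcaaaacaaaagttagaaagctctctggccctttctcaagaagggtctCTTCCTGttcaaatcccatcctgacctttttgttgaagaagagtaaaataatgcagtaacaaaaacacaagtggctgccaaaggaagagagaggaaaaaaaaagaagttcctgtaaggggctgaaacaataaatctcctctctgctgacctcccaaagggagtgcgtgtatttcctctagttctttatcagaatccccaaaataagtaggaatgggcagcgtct
Robo4, chr9:37401722-37402021, plus strand: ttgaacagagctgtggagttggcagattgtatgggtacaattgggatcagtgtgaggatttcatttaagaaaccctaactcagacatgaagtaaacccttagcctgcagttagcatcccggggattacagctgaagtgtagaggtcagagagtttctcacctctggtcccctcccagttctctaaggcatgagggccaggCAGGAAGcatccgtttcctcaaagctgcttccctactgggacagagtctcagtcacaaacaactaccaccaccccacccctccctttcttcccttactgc
In the window of Col4a2 the capitals mark instead the 22 bases from its own first transcribed base to that of Col4a1, which is read from the other strand.
Col4a2, chr8:11312555-11312854, plus strand: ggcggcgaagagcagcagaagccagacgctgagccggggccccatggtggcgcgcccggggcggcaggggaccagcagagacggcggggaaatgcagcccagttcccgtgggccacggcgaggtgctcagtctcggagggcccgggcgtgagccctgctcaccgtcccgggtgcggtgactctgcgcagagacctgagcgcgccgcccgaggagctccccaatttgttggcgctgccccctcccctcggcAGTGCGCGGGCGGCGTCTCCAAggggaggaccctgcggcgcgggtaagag
The shares are descriptions of these windows. CCGGAA was present in 16.7% of 27025 genes with a window and in 19.2% of the 271 matched genes that stood above the 3 blood populations at a mean of 100 CPM or more, but in 32.3% of all 1736 matched genes at that level. CAGGAAG was present in 14.8%, 14.4% and 13.7% of the same sets. Windows with a match were chosen for printing: of the 25 leading genes 16 had a window, of which 2 (12.5%) held CCGGAA and 2 held CAGGAAG.

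Beyond Cdh5, on whose protein the cells were sorted, all of the other 5 markers had a higher mean in the endothelium than in each blood population. Kdr, the main VEGF receptor, had a mean of 1527 CPM (lowest cell 2.14, median 1084, highest 12837), against 13.3 CPM in HPC, 117.2 in Mk and 0.433 in Mac. Its 150546 counts had an exact Poisson 95% interval of 149786 to 151308, and over the 6 markers that interval spanned at most 0.847% either side; like all intervals here it covers counting error only, since polymerase chain reaction copies are not separate molecules. Tek, the angiopoietin receptor, had a mean of 887 CPM (0.612, 546 and 3224 for the lowest, median and highest cell), against 41.8, 68.9 and 6.23 CPM. For Kdr and Tek the Mk population came closest, at log2 ratios of 3.69 and 3.67. For Tek, however, 1 of the 73 Mk cells held 2425 CPM, and the order of Mk and HPC without it was not tested.

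Plvap, which forms the diaphragms of fenestrae and caveolae, had a mean of 609 CPM (0, 307 and 5291), against 3.48 CPM in HPC, 8.00 in Mk and no count in Mac. Aplnr, the apelin receptor, had a mean of 572 CPM (0, 297 and 2462) and Emcn, the sialomucin endomucin, a mean of 687 CPM (0, 259 and 4785). Neither Aplnr nor Emcn had a count in Mk or Mac. Taking 3 counts over the population as the floor, the endothelial Emcn mean was 20349-fold the floor in Mk and 10634-fold that in Mac. In HPC they stood at 6.99 and 17.6 CPM. Without cell 16, the lowest endothelial cell had 141.5 CPM of Kdr and 16.7 CPM of Tek, whereas the lowest cells for Aplnr and Emcn stayed at 0. The markers therefore divided into those present in every other cell (Kdr, Cdh5 and Tek) and those missing from some: 9 of the 61 cells were below 10 counts of Aplnr and 14 below 10 counts of Emcn.

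**Figure D1:**
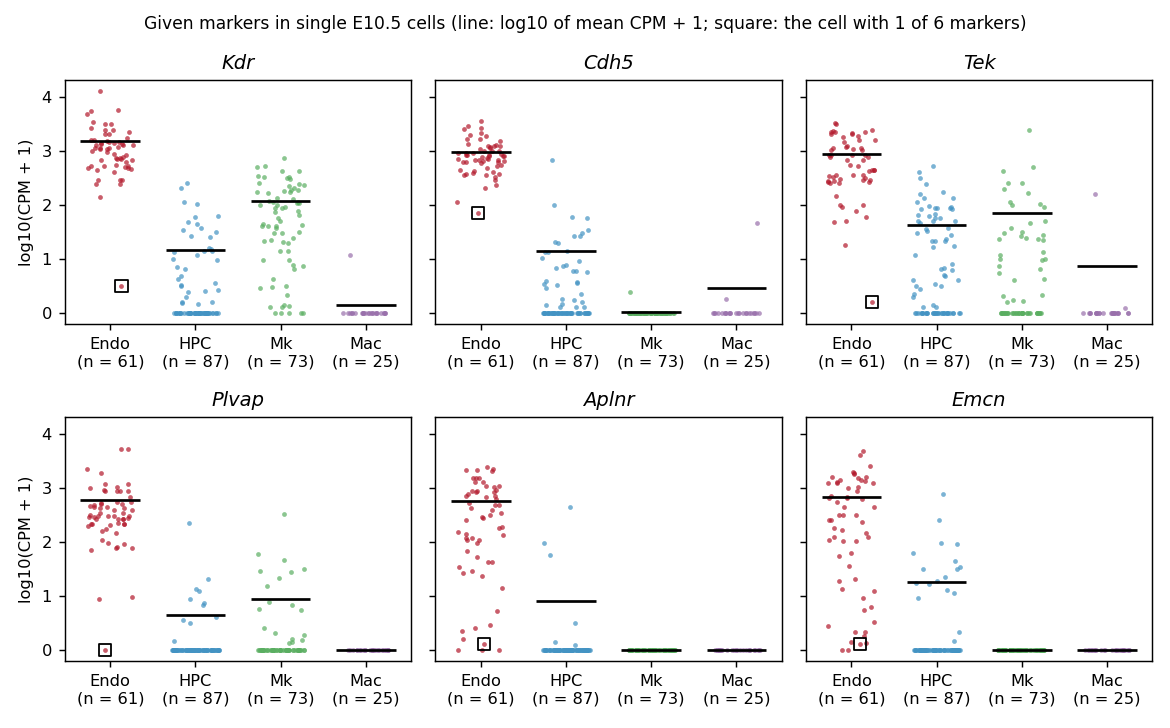
Level of the 6 markers in single E10.5 cells, as log10(CPM + 1) on the y axis, by population on the x axis (61 Endo, 87 HPC, 73 Mk and 25 Mac cells); each point is a cell, the line is the log10 of the mean CPM + 1 and the square marks cell 16. The endothelial mean lies above the other 3 for every marker, with Kdr also present in Mk cells at a mean of 117.2 CPM and the Aplnr and Emcn points of the endothelium reaching down to 0.

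Genes that set the endothelium apart were taken as those with a mean at least 4-fold higher (on mean CPM + 1) than in each of the other 3 populations, among the 11128 genes whose mean reached 10 CPM in any of the 4. By this rule 1133 genes were higher than each (10.2%) and 325 were lower than each (2.92%). Single comparisons gave 1795 genes higher than HPC (16.1%) and 1001 lower (9.00%), 1906 higher than Mk (17.1%) and 987 lower (8.87%), and 2229 higher than Mac (20.0%) and 1353 lower (12.2%). The median log2 ratio over these genes was 0.08 over HPC, 0.01 over Mk and 0.25 over Mac, and the median of the smallest of the 3 ratios was -0.58. At the line itself, Pde4b and Lima1 were inside at a smallest log2 ratio of 2.00 and Zmym2 and Gm38190 were just outside at 2.00.

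The excess of higher over lower genes depended on how the cells were averaged. In 281 of the 1133 genes, 50% or more of the summed CPM came from 1 cell, and the median gene had a count in 35 of the 61 cells. With the highest endothelial cell of each gene left out and the blood populations kept whole, 701 genes were higher and 594 lower. That step can only lower the endothelial means, so the direction of its change was fixed by its construction. With log2 values averaged over cells in place of CPM, the counts were 483 and 479, and they held 38.9% of the higher and 36.0% of the lower calls above, and with a pseudocount of 10 CPM they were 572 and 63. Over all genes of the table, those under the filter included, the median log2 ratio over HPC was -0.59 on averaged log2 values and -0.22 on CPM from total counts, against -0.01 here. Of the 2400 genes found in 50% or more of the cells at a mean of at least 100 CPM, 389 were higher than each (16.2%), and the genes named next come from these.

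The 25 leading genes all kept their call under every alternative run, those above included. They were chosen in these same cells for a smallest log2 ratio of 6.81 or more, far past the line at 2.00, which made this likely. The lowest such ratio was 5.04 without the 7 cells of high CPM sum and 2.67 with averaged log2 values. Clec14a, a C-type lectin of the endothelial surface, led the 25 genes at 944 CPM (lowest cell 13.7, median 757, highest 6758), against 1.42 CPM in HPC and no count in Mk or Mac. It was among 17 listed genes at 10 counts or more in each of the 60 cells other than cell 16, as were the receptors Calcrl, Cd93 and Flt1. Robo4, an endothelial roundabout receptor, stood at 286 CPM (0.306, 116.6 and 3444) against 0.263 CPM in HPC. Ptprb, the phosphatase VE-PTP that acts on Tek and Cdh5, stood at 895 CPM (0.306, 675 and 3509) against 5.74, 0.0525 and 0.0204 CPM.

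Of the 25 genes, 4 were in the matrix list: Col4a1, Col4a2, Nid1 and Sparc. Col4a1 and Col4a2, the collagen IV chains of basement membrane whose head-to-head starts are printed above, had means of 2192 CPM (12.5, 1605 and 12928) and 1088 CPM (56.8, 699 and 5013). Both were at 10 counts or more in all 61 cells, and their levels had a Pearson r of 0.42 over the 61 cells, which share a capture and differ in depth. Nid1, the nidogen that ties laminin to collagen IV, stood at 1460 CPM (0, 987 and 8567) against 11.4 CPM in HPC. Sparc, a secreted collagen-binding protein, had a mean of 3578 CPM and never fell under 645 CPM, against 14.9 to 26.3 CPM in the blood populations. Pxdn, the peroxidase that crosslinks collagen IV, was present in all 61 cells at 266 CPM (1.77, 151.2 and 2889).

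Several leading genes were uneven among the cells. Igfbp3, an insulin-like growth factor binding protein without a count in the other 3 populations, had a mean of 364 CPM and a median of 59.8 CPM. Edil3, a secreted integrin ligand, had a mean of 400 CPM that fell to 50.4 CPM without its highest cell, which held 21358 CPM, and its median was 1.76 CPM. Dysf (dysferlin, of membrane repair) and Adgrg6, an adhesion receptor, had medians of 17.7 and 2.12 CPM under means of 288 and 301 CPM. Epas1, which codes for the oxygen-regulated factor HIF2A, was more even, at 418 CPM (1.66, 299 and 1445). The remaining leading genes were Oit3, Gja5, Efna1, Nfib, Adam12, Npr3, Col14a1, Meis2, Tns2, Col5a2, Adamts5 and Phldb2, with means of 184 to 694 CPM, found in 49 to 61 of the 61 cells.

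Lists of endothelial genes were then followed by role. The 16 lists hold 184 genes, of which 99 were higher than each blood population, 6 were lower and 130 were found in 50% or more of the cells; these lists were drawn up with earlier results of these data known, and the background share was 10.2%. All 5 VEGF receptors and co-receptors were higher. Flt1, which binds VEGF without strong signalling, stood at 1172 CPM (0.917, 769 and 7908) against 18.6, 0.0874 and 0.396 CPM. Flt4, the receptor of VEGF-C, stood at 314 CPM (0, 188 and 2151). Nrp1, a co-receptor, stood at 1063 CPM against 159 CPM in Mac, its closest population at a log2 ratio of 2.73, and Nrp2 at 187 CPM.

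Of 6 Tie receptor and angiopoietin genes, Tek, Tie1 and Ptprb were higher. Tie1 had a mean of 328 CPM, but 143.9 CPM without its highest cell. The ligands divided. Angpt1, the activating ligand of Tek, had no count in any of the 61 cells, for which the limit of 3 cells of 61 is 4.92% and the two-sided exact 95% interval reaches 5.87%, and stood at 139.5 CPM in HPC, 115.2 in Mk and 15.5 in Mac. Angpt2, the context-dependent ligand, was at 10 counts or more in 16 cells, with a mean of 44.5 CPM.

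Of 14 junction genes, 13 passed the filter on level and 9 were higher. Esam, a tight junction immunoglobulin, stood at 580 CPM (0.306, 396 and 3109) with Mk closest at 99.6 CPM. Cldn5, the endothelial claudin, was at 10 counts or more in 39 cells, with a mean of 80.5 CPM and a median of 13.5 CPM, against 0.0357 CPM in HPC and no count in Mk or Mac. Tjp1, which links junctions to actin, stood at 323 CPM against at most 8.80 CPM. The genes Ctnnb1 and F11r did not pass the line, because Mac held 539 CPM of Ctnnb1 and Mk 308 CPM of F11r beside 570 and 321 CPM in the endothelium.

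Of 17 surface mucin and adhesion genes, 15 passed the filter and 12 were higher. Cd93 stood at 3017 CPM (1.22, 2882 and 7856) against 232 CPM in HPC, Icam2 at 770 CPM (0.612, 648 and 3329) and Ecscr at 649 CPM (0, 596 and 2417). Cd34 was shared with progenitors, at 510 CPM in the endothelium and 403 CPM in HPC. Clec1b, the podoplanin receptor of platelets, was higher in Mk, at 343 against 164 CPM. Selp had no count in the 61 cells, and Vcam1 reached 10 counts in 6 of them.

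All 8 caveolar genes in the table passed the filter and 5 were higher. Prkcdbp, which codes for a cavin, stood at 126.7 CPM against at most 9.03 CPM elsewhere, and Ehd2 had 45 cells at 10 counts or more. Cav1, the main caveolin, was patchy: 22 cells were at 10 counts or more, the median was 0.698 CPM and the highest cell 3058 CPM. Sdpr and Ptrf, which code for cavins, were shared with Mk, at 303 and 203 CPM there beside 815 and 661 CPM.

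Receptors for peptides and lipids gave 13 higher genes of 18, with 16 past the filter. Calcrl and Ramp2, the parts of the adrenomedullin receptor, stood at 3578 CPM (2.45, 3023 and 10499) and 587 CPM (5.58, 619 and 1574), against 268 and 8.58 CPM in HPC. Adm, the ligand, was found in 12 cells. Ece1, the endothelin-converting enzyme, was even at 1887 CPM (1.53, 1799 and 8761) against at most 70.0 CPM. Ednrb, an endothelin receptor, was instead higher in HPC and Mac, at 52.9 and 393 CPM against 17.8 CPM.

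**Figure D2:**
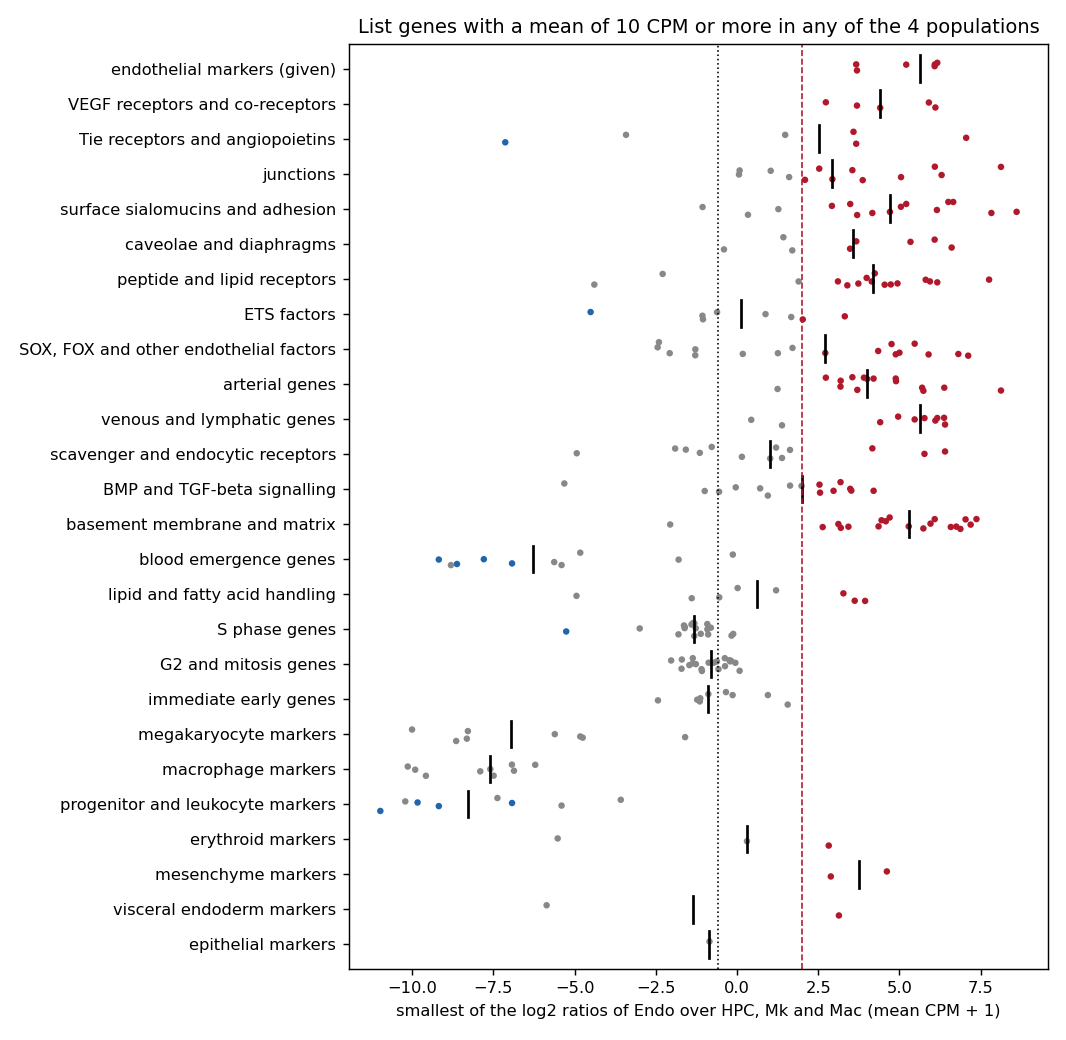
Smallest of the log2 ratios of the endothelial mean over the HPC, Mk and Mac means (CPM + 1; x axis) for every list gene with a mean of 10 CPM or more in any population, by list (y axis); red points are higher than each by 4-fold or more, blue points lower than each, and the bar is the median of the list. The dashed line is the 4-fold line at 2.00 and the dotted line the median of all 11128 genes at -0.58; the matrix list has its median at 5.29 and the blood emergence list at -6.28.

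Transcription factors were less clear. Of 9 ETS genes, 8 passed the filter and only Ets1, at 987 CPM (0.612, 576 and 4077) against at most 98.2 CPM, and Ets2, at 207 CPM, were higher than each. The mean of Ets2 was 181 CPM without its highest cell, beside 50.1 CPM in Mac, and 1 ETS gene was then higher than each. Fli1 was common to all 4 populations, at 479 CPM in the endothelium and 231 to 734 CPM in the others. Erg, well known in endothelium, stood at 37.4 CPM with 25 cells at 10 counts or more. Etv2, which starts the endothelial programme in mesoderm, had no count. Elf1 was lower than each, at 10.2 CPM against 123.5 to 254 CPM.

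The SOXF factors Sox7, Sox17 and Sox18 were all higher, at 124.2, 34.2 and 87.5 CPM against at most 0.487 CPM, and were at 10 counts or more in 33, 34 and 42 cells. Mecom stood at 181 CPM and Meis2 at 516 CPM, or 340.4 CPM without its highest cell. Of the 20 factors in this list, 17 passed the filter and 9 were higher. The factors that endothelium shares with blood did not separate: Tal1, Lmo2, Gata2 and Hhex stood at 40.2, 40.7, 62.7 and 186 CPM, and none passed the 4-fold line in either direction against all 3. Mef2c was higher in all 3 blood populations, at 635 to 1296 CPM against 308 CPM.

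Of 20 matrix genes, 19 passed the filter and 18 were higher. Fn1 (fibronectin) stood at 1645 CPM (1.22, 1249 and 5865), Hspg2 (perlecan) at 208 CPM and Mmrn2 at 269 CPM, each at most 25.5 CPM in any blood population. The laminin chains Lama4, Lamb1 and Lamc1 were found in 55, 40 and 47 cells, with medians of 103.3, 2.63 and 4.07 CPM. Lama5 did not pass the filter, and Mmrn1 was higher in Mk, at 886 against 212 CPM.

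BMP and TGF-beta genes gave 7 higher of 18, with 15 past the filter, or 4 higher with a pseudocount of 10 CPM. The endothelial co-receptor Eng (194.9 CPM) and receptor Acvrl1 (155.6 CPM) were higher, with Bmpr2 at 316 CPM and the target Id3 at 338 CPM. The receptor Bmpr1a was found in 2 cells and was higher in Mac, at 145.4 against 2.68 CPM. Of 10 lipid genes, 8 passed the filter and Cpt1a, Fabp4 and Fabp5 were higher, or 1 of them without the highest endothelial cell of each gene. Fabp5, a fatty acid carrier, was the even member at 929 CPM (6.56, 722 and 3131) against at most 59.5 CPM, whereas the mean of Cpt1a, 464 CPM, was 133.5 CPM without its highest cell.

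Of 11 genes of blood emergence, 10 passed the filter, 4 were lower than each blood population and none was higher; with a pseudocount of 10 CPM, and with averaged log2 values, 1 was lower. Runx1, Gfi1b, Myb and Ptprc had no count in any of the 61 cells, each with the same limits of 4.92% and 5.87% of cells, and were the 4 lower genes. Ptprc codes for CD45, which the gate excluded. Since the sort took only cells negative for CD41 and CD45, these absences and limits describe that gate and not all CDH5+ cells of the yolk sac. Runx1 was found in all 87 HPC, all 73 Mk and all 25 Mac cells, at 221 CPM in HPC and 199 CPM in Mk. Gfi1 and Spi1 had no count either, and Gata1 had 1 count or more in 1 cell. Kit was at 10 counts or more in 20 cells, with a mean of 45.8 CPM between 14.4 CPM in Mk and 162 CPM in HPC. Cd44 was common, at 10 counts or more in 46 cells and 313 CPM. Itga2b, which codes for the gated CD41, was at 10 counts or more in 18 cells (mean 20.3 CPM), as against 46 of 87 HPC, all 73 Mk and 1 of 25 Mac cells.

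The 10 genes furthest below all 3 blood populations were found in 0 to 3 of the endothelial cells. Coro1a, Plek, Rac2, Runx1, Sla and F13a1 were without a count in the endothelium. Coro1a, a leukocyte actin regulator, stood at 504, 336 and 2018 CPM in HPC, Mk and Mac. These means were 12115-fold, 8072-fold and 48552-fold the endothelial floor of 3 counts over the population. In Mac, 1 of 25 cells held 25043 CPM of Coro1a, and the median was 854 CPM. Plek (pleckstrin) reached 4716 CPM in Mk, and Rac2, the blood-restricted Rac, 911 CPM in HPC. Pla2g4a, Nckap1l, Ptpn6 and Fcer1g were found in 1, 3, 3 and 2 endothelial cells. All 10 kept their call under every alternative run, which their choice as the lowest in these same cells made likely.

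Genes of proliferation ranged from absent to complete among the endothelial cells. Of 18 S phase genes none was higher and only Cdc45, a helicase part, was lower than each (20.7 against 138.1, 137.8 and 828 CPM). With averaged log2 values 10 of them were lower than each, and 3 were without the cells that held markers of another type. Of 20 genes of G2 and mitosis none was higher or lower, or 2 were lower with averaged log2 values. After every cell was thinned to 480000 counts, 24 of 61 endothelial cells (39.3%, exact 95% interval 27.1% to 52.7%) had 9 or more of the S phase genes at 10 counts, against 98.9% of HPC, 84.9% of Mk and 80.0% of Mac cells. Without thinning the endothelial share was 54.1%. For G2 and mitosis, 25 endothelial cells (41.0%, 28.6% to 54.3%) had 10 or more genes, against 97.7% of HPC, 84.9% of Mk and 44.0% (24.4% to 65.1%) of Mac cells, and without thinning 52.5%.

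The summed level of the S phase genes had a mean of 2823 CPM in the endothelium and 5634, 4935 and 6386 CPM in HPC, Mk and Mac. For G2 and mitosis the mean was 4102 CPM against 5011, 4725 and 6134 CPM, while the median was 2132 CPM against 5143, 4159 and 3928 CPM. The endothelial cells spanned the whole range, with 11 cells at 3 or fewer of the 20 genes and 4 cells at all 20 before thinning. The thinned shares and the CPM sums thus gave the same order for endothelium and HPC. The endothelial cells also held fewer genes with a count than the other populations, and the part of this in the shares was not tested.

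**Figure D3:**
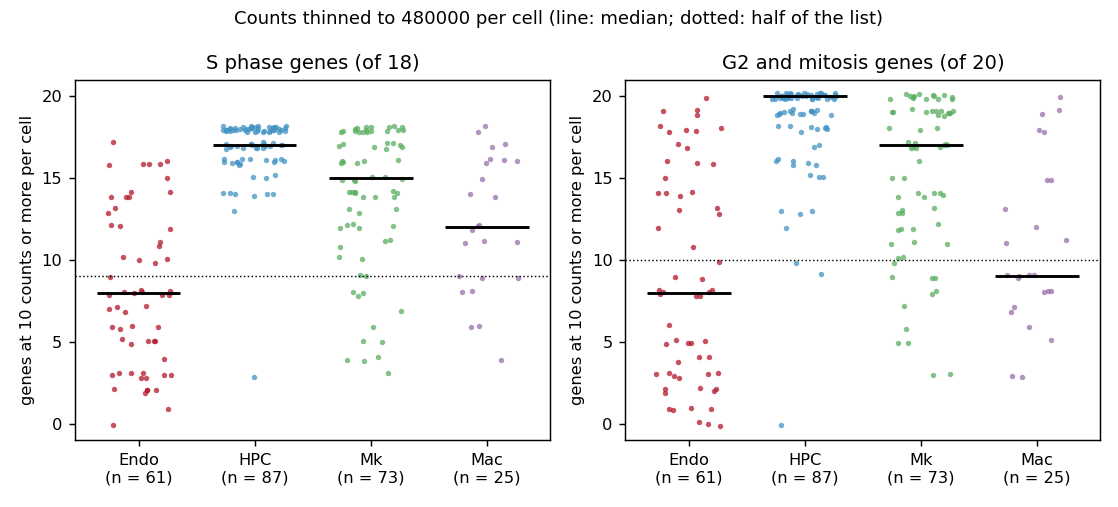
Number of S phase genes (left, of 18) and of G2 and mitosis genes (right, of 20) at 10 counts or more in each cell after thinning to 480000 counts, by E10.5 population on the x axis; points are cells, shifted slightly to keep them apart, the line is the median and the dotted line 50% of the list. The endothelial medians are 8 genes in both lists, and its cells run from 0 to 17 and from 0 to 20 genes.

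Spread among the 61 cells was then described with principal components of the 1000 genes whose variance most exceeded that of genes of like mean. The first 4 components held 7.56%, 4.78%, 3.72% and 3.06% of the variance, so that no single axis dominated. Component 1 ran with the mitochondrial share: over the 61 cells it had a Pearson r of -0.68 with the mitochondrial share, 0.49 with the number of genes found and 0.46 with log2 total counts. Uqcrc1, Gm10093, Twf1, Golt1b and Wrb led its upper end and Xist, mt-Co3, Srgap1, Slc25a37 and Lrch1 its lower end. Without the 7 cells of high CPM sum, the largest r of log2 total counts with any of the 4 components was 0.20.

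Component 2 followed the G2 and mitosis genes, with r of 0.90 for their mean log2 level. Ube2c, Ccnb1, Hmmr, Prc1 and Kif20b led its upper end and Nrros, Tmem204, Rab31, Vta1 and Impact its lower end. Ube2c, of the ubiquitin pathway that ends mitosis, ran from 0 to 2170 CPM with a median of 70.4 CPM, and Ccnb1 (cyclin B1) from 0 to 1279 CPM with a median of 22.5 CPM.

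Component 3 followed scavenger receptors (r of 0.85 for the list and 0.60 for the venous and lymphatic list) and component 4 the arterial list (r of 0.83). Component 4 also had r of 0.45 with a list of immediate early genes. The genes at the ends of components 3 and 4 were chosen after their values were seen. Mrc1, Ehd3, Cd36 and Dpp4 led component 3. Gja4, Gja5, Tmem100, Cd44 and Adgrg6 led component 4, with Aplnr and Oit3 first at its other end. With 2000 genes in place of 1000, the largest r of the arterial list with components 1 to 4 was 0.48.

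**Figure D4:**
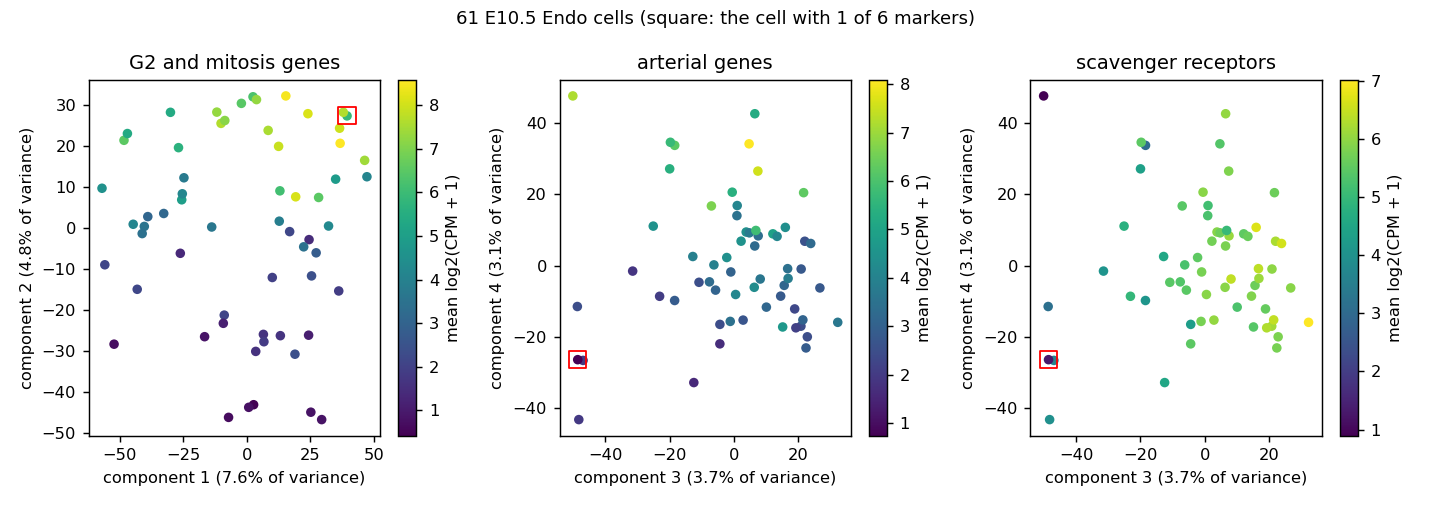
The 61 endothelial cells on principal components 1 and 2 (left) and 3 and 4 (middle and right), with the share of variance on each axis; colour is the mean log2(CPM + 1) of the G2 and mitosis genes, the arterial genes and the scavenger receptors, and the square marks cell 16. The colour changes along component 2 at left (r of 0.90), along component 4 in the middle (r of 0.83) and along component 3 at right (r of 0.85).

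Scavenger and endocytic receptors, by which yolk sac and liver sinusoidal endothelium take up circulating molecules, were partly shared with macrophages. Of 15 such genes in the tables, 13 passed the filter and 3 were higher than each: Stab2, at 2469 CPM (1.64, 1949 and 17310) against 28.2 CPM in HPC and under 1 CPM in Mk and Mac; Lyve1, the hyaluronan receptor, at 4036 CPM (2.45, 3209 and 16045) against 47.8 to 73.0 CPM; and Colec12, at 262 CPM. Mrc1 (the mannose receptor) and Dab2 (an endocytic adaptor) were instead highest in Mac, at 3493 and 3293 CPM beside 2035 and 1103 CPM. Stab1 and Maf were shared with Mac, at 829 and 2482 CPM in the endothelium and 317 and 1832 CPM there. The defining macrophage genes were at or near 0 in the same cells: 8 of 9 markers, Csf1r, Cx3cr1 and the C1q chains included, had no count in any of the 61 cells, and their summed level was at most 5.25 CPM, against 189 to 9794 CPM in Mac.

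Within the endothelium these receptors varied together. Mrc1 and Cd36 had a Pearson r of 0.82 over the 61 cells (0.80 without cell 16), Stab2 and the factor gene Maf 0.80 (0.75) and Lyve1 and Stab2 0.64 (0.55). These cells share a capture and their depth differs, and the values are descriptions. Nearly all cells held them at some level, with Stab2 and Lyve1 at 10 counts or more in 60 cells each and Mrc1 in 57.

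Arterial and venous genes were both widespread. Of 16 arterial genes 15 passed the filter and 14 were higher than each blood population; the exceptions were Cxcr4, with Mk at 4.42 against 11.9 CPM, and Jag2. Of 12 venous and lymphatic genes 10 passed and 8 were higher. Efnb2, the arterial ephrin, was at 10 counts or more in 56 cells, at 519 CPM (0, 415 and 3036). Its venous receptor Ephb4 was in 40 cells with a mean of 265 CPM, or 86.3 CPM without its highest cell. Nr2f2 (COUP-TFII), which promotes venous identity, was in 39 cells at 112.5 CPM (0, 27.0 and 966). The lymphatic factor Prox1 reached 10 counts in no cell and Pdpn only in cell 16, which made Pdpn pass the 4-fold line by itself.

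Gja5 and Gja4, the connexins 40 and 37 of arterial endothelium, ranged from absent to high among the cells. Gja5 was at 10 counts or more in 29 cells, with a mean of 322 CPM, a median of 6.28 CPM and a highest cell of 4427 CPM. Gja4 was at 10 counts or more in 22 cells (mean 319.5, median 1.04 and highest 3584 CPM) and had the largest excess variance among the genes considered, with an SD of 4.22 over cells on the log2(CPM + 1) scale. They met in 19 cells, with 10 cells holding only Gja5, 3 only Gja4 and 29 neither, and had r of 0.75. All 10 cells with Cxcr4 held Gja5, as did 20 of the 31 cells with Dll4, the Notch ligand, and 27 of the 48 with Jag1. Tmem100, chosen after its values were seen, had r of 0.67 with Gja5 and was in 16 cells, of which 14 held Gja5.

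Gja5 ran against Aplnr and Flt4 in level but did not exclude them. The r was -0.36 with Aplnr and -0.42 with Flt4, or -0.41 and -0.50 without cell 16, and -0.17 with Nr2f2. Yet 23 cells held both Gja5 and Aplnr, 6 only Gja5, 29 only Aplnr and 3 neither. Per cell, 2 to 15 of the 16 arterial genes were at 10 counts or more (median 7) together with 1 to 9 of the 12 venous and lymphatic genes (median 8). Pairs of arterial genes had a median r of 0.25, whereas pairs of an arterial with a venous gene had a median of -0.09, and 50 of these 160 pairs were above 0. The mean log2 levels of the lists had r of -0.25, or -0.41 without cell 16.

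**Figure D5:**
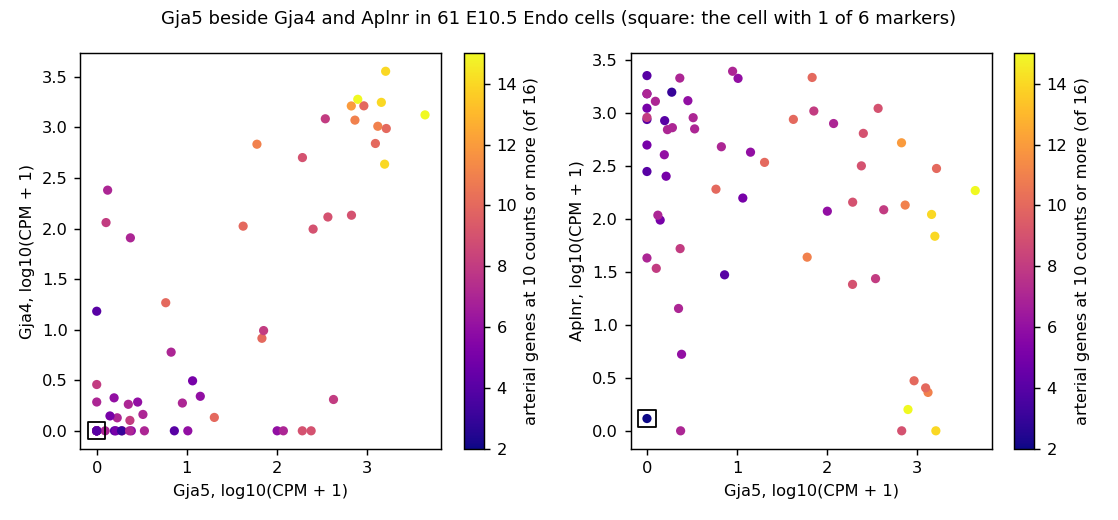
Gja5 (x axis) against Gja4 (left y axis) and Aplnr (right y axis), all as log10(CPM + 1), in the 61 endothelial cells; colour is the number of the 16 arterial genes at 10 counts or more and the square marks cell 16. High Gja4 falls in cells with Gja5 (r of 0.75), and Aplnr is lower on average in cells with Gja5 (r of -0.36), with 23 cells holding both at 10 counts or more.

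Besides Gja4 and Gja5, the 15 genes of largest excess variance were Ccdc6, Rab31, Nmt2, Nudt5, Idh1, Map1b, Pttg1ip, Idh3g, Zfp57, Cnpy4, Tbck, Prdx6 and Tnfrsf26. Most were not endothelial genes by the rule above: Nudt5, Nmt2 and Ccdc6 had means of 307, 367 and 312 CPM beside 625, 813 and 485 CPM in HPC. Map1b, a microtubule protein, was endothelial, at 322 CPM against at most 4.08 CPM, and had r of -0.42 with Gja4; 38 cells held it and 7 of these held Gja4. Tnfrsf26, a tumour necrosis factor receptor family member, was at 10 counts or more in 25 cells, with a median of 1.36 CPM and a highest cell of 3017 CPM.

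Markers of other cells were counted in the endothelium as a check on the sort. At 10 counts or more, 12 cells held 2 or more of 8 megakaryocyte markers, 8 cells 2 or more of 8 erythroid markers, 5 cells 2 or more of 13 mesenchyme markers, and cell 16 alone 2 or more visceral endoderm and epithelial markers. No cell held 2 of the macrophage or of the progenitor markers, although Lcp1, an actin bundler of leukocytes, was in 34 cells. In all 23 cells met such a count, 9 of them for megakaryocyte markers alone. These were mostly Vwf, which endothelium also expresses, with Itga2b, and these 2 genes had r of -0.02. Pf4 was also at 203 and 294 counts in cells 35 and 58, and Gp1ba at 29 and 1220 counts in cells 42 and 53. Gp9, Ppbp and Treml1 had no count. The summed megakaryocyte list ran from 0 to 1633 CPM (median 17.2) in the endothelium and from 863 to 24218 CPM in Mk. The summed erythroid list reached 3695 CPM in the highest cell, with a median of 0.322 CPM. In the 38 other cells 1192 genes were higher than each blood population and 534 lower, and the 25 leading genes kept their call.

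Transcripts that mark the sex of a cell gave another check. At 5 counts or more, 26 cells had both Xist and the summed counts of 4 Y-linked genes, 19 had Xist alone and 16 the Y-linked genes alone. At 100 counts or more, 3 cells had both, 19 Xist alone and 23 the Y-linked genes alone. The yolk sacs therefore came from both sexes, and the part of the cells with both in the results was not tested.

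Endothelium sorted from the E8.5 yolk sac, 79 cells of another capture, gave levels that are set beside those at E10.5 for genes chosen after their values were seen; stage and capture cannot be told apart. Gja5 stood at 1.76 CPM at E8.5 and 322 CPM at E10.5, Sdpr at 7.82 and 815 CPM, Fabp5 at 59.7 and 929 CPM, and Apln, the ligand of Aplnr, at 91.9 and 4.22 CPM.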

How the data were processed

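Single cells were sorted from E10.5 yolk sacs, captured on 10-17 μm Fluidigm C1 circuits, made into Nextera XT libraries and read on an Illumina HiSeq. Per the study's methods and the labels, the authors aligned paired reads with Rsubread to the Ensembl mouse genome (GRCm38), counted them per gene with featureCounts and filtered cells and genes with scater. The deposited counts are whole reads per gene without molecular identifiers. The deposited signal is CPM scaled by the authors with scran size factors, so it does not sum to the same total in each cell. How the authors' filter set its limits is not given in the sources used here. Of the columns, 601 in the filtered and 993 in the unfiltered tables belong to other populations and were not used.

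Mean CPM over cells was compared as log2 of (mean + 1), among genes whose mean reached 10 CPM in any of the 4 populations, with a line at 4-fold. No test was run, since each population is 1 sample. Detection means 1 count or more, and cells holding a gene 10 counts or more. Shares have exact (Clopper-Pearson) 95% intervals, and an absent gene also has the limit of 3 cells of those examined, which is lower than the upper end of the two-sided interval. For cell cycle genes each cell was thinned to 480000 counts, and all cells were deep enough. No doublet caller was run. The authors imaged each capture site to record how many cells it held. Whether sites with more than 1 cell were left out is not given in the sources used here. The gene lists, the 6 markers and the other choices were made with earlier results of these data known. Named genes are the listed genes, the 25 with the largest smallest ratio (mean of 100 CPM or more, in 50% or more of the cells), the 10 lowest (100 CPM or more in 50% or more of the cells of each blood population), 15 of largest excess variance (found in 20% to 90% of the cells) and 5 at each end of components 1 and 2. The calling and component steps were tested on simulated data with large known changes. Those data were not built to hold genes carried mainly by 1 cell, so the test does not cover such genes. Symbols are those of the filtered table; of 47643 gene identifiers in the unfiltered counts, 47224 matched a symbol. Promoter windows and motif shares used RefSeq tables of GRCm38.p6. Reads of overlapping or near-identical genes, the alpha globins Hba-a1 and Hba-a2 among them, may have been split between them. Alternatives were pseudocounts, scalings, thinning, detection limits, numbers of genes and cells left out. Python 3.11.15, pandas 2.3.3, numpy 2.4.6 and scipy 1.17.1 were used.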

Additional observations from a re-analysis of the deposited data

Results flagged for a closer look

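The filter of the study removed 19 of the 80 captured endothelial cells, which none of the comparisons above used. In the unfiltered counts, 16 of the 19 had 4 or more of the 6 endothelial markers at 10 counts or more, and 4 had all 6. Kdr reached 10 counts in all 19, and Runx1, Ptprc and Epcam in none. The embryonic globin genes Hbb-y and Hba-x reached 10 counts in 6 and 4 of the 19, against 8 and 10 of the 61 kept cells. The removed cells had 50189 to 1285140 counts (median 415116) and 3220 to 5341 genes (median 4727), and their median mitochondrial share was 32.7%, against 4.43% in the 61 kept cells. They are set out because they carry counts of endothelial markers outside the cells analysed.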

How the results depend on the processing

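The counts of genes past the 4-fold line moved with the averaging. The 25 leading genes, 6 markers and 10 lowest genes kept their calls under all 9 alternatives run on them. The leading and lowest genes were chosen in these same cells for ratios far from the line. The alternatives that leave cells out were chosen after seeing the data. With a pseudocount of 10 CPM, 572 genes were higher than each population and 63 lower; single comparisons gave 904 and 310 (HPC), 982 and 382 (Mk) and 1019 and 708 (Mac). With averaged log2 values, 483 were higher than each, and single comparisons gave 618 higher and 3342 lower (HPC), 822 and 1970 (Mk) and 841 higher (Mac). Without the highest endothelial cell of each gene, which can only lower its mean, 701 were higher and 594 lower, with 1108 and 1650 (HPC), 1237 and 1638 (Mk) and 1398 higher (Mac). Without the 23 cells with markers of another type, 534 were lower than each. Without cell 16 the counts were 1134 and 335, and without the 7 cells of high CPM sum 1032 and 332. The largest r of the arterial list with components 1 to 4 was 0.48 on 2000 genes, and that of total counts was 0.20 without the 7 cells. At 1 count or more, 51 cells held Gja5, 37 both connexins and 48 Gja5 with Aplnr, the median was 11 arterial genes per cell, and 42 cells held markers of another type; after thinning that last number was 15. Beyond the construction of the alternatives, the cause was not tested. In all, 98 main values stayed and 30 moved, as did 351 and 51 of the values for single lists and genes. Among lists, with a pseudocount of 10 CPM and with averaged log2 values no Tie or angiopoietin gene was lower than each, and scavenger receptors had 5 higher in place of 3 with averaged log2 values. No paired analysis was possible because each population is 1 sample and the cell numbers pair nothing. The number of cells limits the absences: 0 of 61 cells allows a share of up to 4.92% by the limit of 3 and 5.87% by the exact interval. Neither limit covers transcripts missed within a cell.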
